A study of Mus musculus with 7 samples.

Results

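Shelterin is the protein complex that coats the repeated DNA at the ends of chromosomes and keeps those ends from being treated as broken DNA. The 7 mouse genes described here encode its subunits, and they were taken by symbol from the 21911 protein-coding genes of GENCODE M21. The data came from 7 libraries of mouse muscle stem cells (MuSCs), the resident stem cells of skeletal muscle that carry Pax7 and rebuild fibers after injury. ATAC-seq, in which the transposase Tn5 inserts adapters into accessible DNA, gave 2 Control and 2 TRF2KO libraries, labelled 0 hr and hind limb. The methods of the study describe the knockout as a floxed TRF2 allele crossed to Pax7CreERT2, in which tamoxifen activates a recombinase made only in Pax7-expressing cells of adult mice, on a C57BL/6 background. The other ATAC arm is called control in the methods and wild type elsewhere in the study, and whether it received tamoxifen is not given in the sources used here. The genotype field of all 4 ATAC libraries reads Wildtype, so the titles set the groups. CUT&Tag, in which an antibody brings the transposase to a chromatin protein, gave 2 TRF2 libraries and 1 IgG library. Those libraries are labelled as Wildtype MuSCs of tibialis anterior muscle at 3 days after injury with notexin, a muscle toxin, whereas the methods name a shorter interval, TA together with gastrocnemius, and mice carrying Pax7gCre and a floxed TdTomato reporter. The TRF2 occupancy and the open chromatin were therefore measured in MuSCs of different state. The general isolation method of the study sorts MuSCs on surface markers, and for CUT&Tag the methods refer to another publication for the isolation. How many animals stood behind a library is not given, so the p-values below measure the spread between libraries.

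TRF1 (Terf1) and TRF2 (Terf2) bind double-stranded telomeric repeats directly. RAP1 (Terf2ip) is carried by TRF2, TIN2 (Tinf2) bridges TRF1 and TRF2, TPP1 (Acd) joins TIN2 to POT1, and the POT1 proteins, of which mice have a pair (Pot1a and Pot1b), bind the single-stranded overhang. Loss of TRF2 is known in many dividing cells to expose chromosome ends to the DNA damage response. Terf2 is also the gene deleted in the knockout, so its promoter tests the labels, and the other 6 genes ask whether open chromatin at the rest of the complex moved with it.

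The peak lists held 84102 to 100521 peaks for the ATAC libraries, 12290 and 15479 for TRF2 and 656 for IgG. Of the promoters of 8 MuSC markers, all had an ATAC peak in every ATAC library, and in Control replicate 1 their folds ran from 23.7 at Vcam1 to 191 at Cdh15. The blood genes Ptprc and Itgam had none in any library, and of the 8 markers of other muscle cells 3 had a peak in all 4 libraries (Pecam1, Pdgfra and Acta2).

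The shelterin promoters lay in open chromatin. All 7 had a MACS peak within 1 kb of the gene start in all 4 ATAC libraries, against 60.5% of coding genes. By SEACR 6 did, since Pot1b had no region in Control replicate 2. The value used throughout is the MACS fold, the fragment pileup at the peak summit over background with 1 added to both, a ratio in which higher means more open. Averaged over the Control libraries after centring, the members stood between the 48.1 and 80.2 percentiles of the 13267 genes with a peak in all 4 libraries. Their peaks were 798 to 2031 bp wide. Against all peaks of their own list, the members ranked between the 87.9 and 96.8 percentiles in Control.

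**Figure D1:**
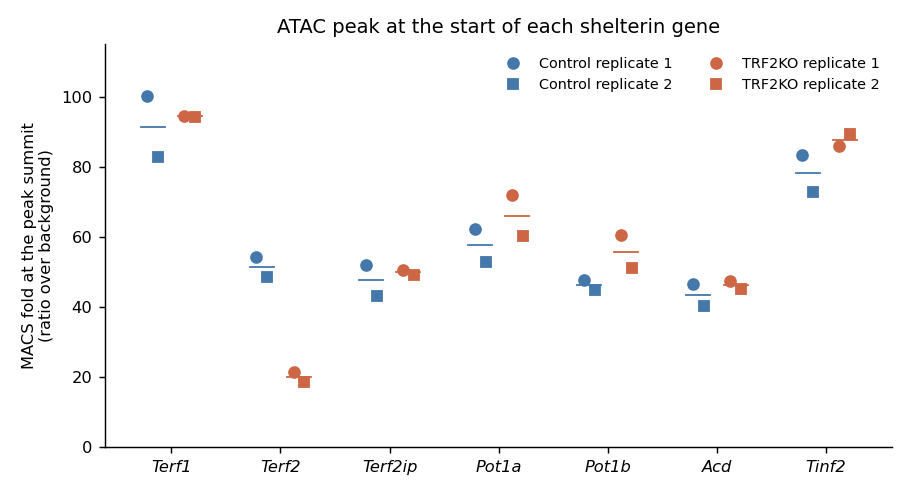
MACS fold at the ATAC summit (ratio over background, vertical axis) at the start of the 7 shelterin genes in 2 Control and 2 TRF2KO libraries, with points for libraries and short lines for group means. The TRF2KO points of Terf2, at 18.6 and 21.5, lie far below its Control points at 48.4 and 54.3, and no other gene shows a gap of that size.

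Of the subunits that bind double-stranded repeats, Terf2 fell in TRF2KO and Terf1 was not called. Terf2 (ENSMUSG00000031921.17, chr8:107069400-107096547, minus strand) gave promoter folds of 54.3 and 48.4 in Control replicates 1 and 2 and of 21.5 and 18.6 in TRF2KO replicates 1 and 2. Group means were 51.4 ± 4.17 and 20.1 ± 2.04 (SD, n = 2 each), and the groups did not overlap. At the summit 235 and 268 fragments piled up in Control and 93 and 81 in TRF2KO. After each library was centred on its median, the Terf2 promoter fell 2.74-fold in TRF2KO, a log2 difference of -1.46 (SE 0.08, adjusted p = 0.0132, limma over 13267 genes). That was the 20th lowest difference and the 4th smallest p of all tested genes. The call needs both Control libraries: without Control replicate 1 the adjusted p was 0.0682 and without Control replicate 2 it was 0.085, with log2 differences of -1.45 and -1.46. Within its own list, the Terf2 peak sat at the 90.1 and 91.5 percentiles in Control and at 75.0 and 73.3 in TRF2KO (exact permutation test, p = 0.333, the smallest that 2 against 2 allows). The lists differ in length, which itself shifts a percentile.

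Set against the background, 1 of the 7 members was called lower where 0.173% of tested genes were (23 genes), and none was called higher where 0.0377% were (5 genes). By centred fold, Terf2 was also the single member with both TRF2KO libraries below both Control libraries, an order seen at 21.0% of tested genes. By percentile within its own list, Terf1 had that order too (96.7 and 96.8 in Control, 95.8 and 96.3 in TRF2KO). So did Terf2ip (89.5 and 90.0 in Control, 88.8 and 89.2 in TRF2KO). The exact permutation test gave p = 0.333 at each of them. The share of all genes with that order of percentiles is not given here. Marker promoters in the same contrast are given beside this. Of the 8 MuSC marker promoters, 7 had a negative log2 difference (lowest -0.77 at Itga7), as did 46.5% of tested genes. By centred fold, both TRF2KO libraries lay below both Control libraries in 5 of the 8. None passed the limma test (2 had an unadjusted p under 0.05, and the lowest adjusted p was 0.306). Of the 3 tested markers of other cells, Acta2, a contractile gene of mural cells, fell (log2 difference -0.97, adjusted p = 0.0489, limma), while Pecam1 (0.13) and Pdgfra (-0.25) were not called. Rgs5, also of mural cells, had peaks in both TRF2KO libraries (folds of 6.18 and 3.40) and in neither Control library. The part of these in the Terf2 result was not tested.

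No such drop was seen at other peaks around Terf2. The promoter peak kept its place, with summits 24 and 33 bp after the start in Control and 2 and 4 bp after it in TRF2KO, and nearly its width, with means of 1279 and 1184 bp (n = 2 each). A second peak over the last exon, about 26 kb along the gene, had folds of 8.98 and 7.38 in Control and of 9.15 and 6.81 in TRF2KO, so there the groups overlapped. The nearest promoters of coding genes showed no call either. Cyb5b, which encodes an outer mitochondrial membrane cytochrome and starts 54093 bp away on the upstream side, had folds of 35.4 and 29.5 in Control and of 32.5 and 30.6 in TRF2KO (log2 difference -0.13, adjusted p = 0.562, limma), and Tmed6 on the other side had a peak in TRF2KO replicate 1 alone. Which exons the floxed allele removes is not given in the sources used here, and fewer fragments from deleted DNA cannot be told apart from less accessible DNA in peak lists. The residual peak likewise cannot be told apart between cells that kept the allele and accessible sequence outside the deletion.

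**Figure D2:**
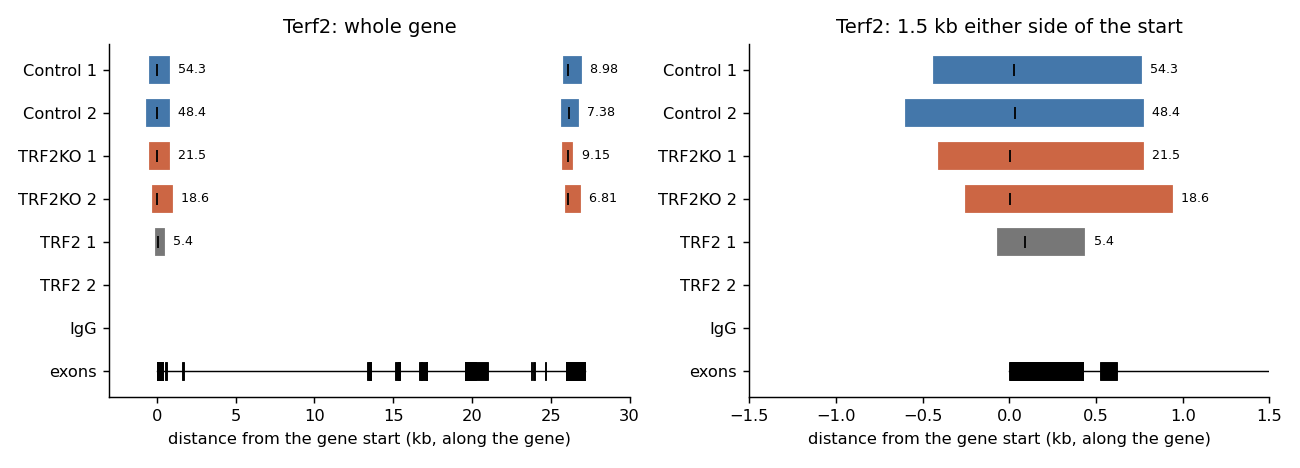
Peaks at Terf2 in all 7 libraries by distance from the gene start (kb, along the gene), with the whole gene on the left and 1.5 kb either side of the start on the right. Bars are peaks, ticks are summits, numbers are MACS folds and black boxes are exons, and the start peak drops from 54.3 and 48.4 to 21.5 and 18.6 while the peak near 26 kb does not.

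The stretch below carries both readouts at Terf2. It is 300 bases of GRCm38, chr8:107096252-107096551, read along the gene on the minus strand from 4 bases before its start, and apart from those 4 bases it lies in exon 1. It also lies inside the 4 ATAC peaks and the TRF2 peak of replicate 1. GC content was 76.7%. Capitals mark a G-quadruplex pattern, in which 4 tracts of 3 or more G are spaced by loops of 1 to 7 bases, that spans 25 bases from 129 to 153 bases after the start.
Terf2: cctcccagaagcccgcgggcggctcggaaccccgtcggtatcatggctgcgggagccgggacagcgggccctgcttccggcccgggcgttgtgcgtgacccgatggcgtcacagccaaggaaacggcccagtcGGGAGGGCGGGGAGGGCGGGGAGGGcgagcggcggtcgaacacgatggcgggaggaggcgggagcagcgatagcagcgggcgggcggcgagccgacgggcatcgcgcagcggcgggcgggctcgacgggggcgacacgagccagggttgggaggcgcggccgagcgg

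Terf1 (ENSMUSG00000025925.14, chr1:15805646-15844052, plus strand), the other repeat-binding subunit, had the most open promoter of the complex. Its folds were 100.1 and 82.6 in Control and 94.5 and 94.2 in TRF2KO. Before centring the TRF2KO values lay between the Control values, and after it the groups overlapped. The log2 difference was -0.05 (95% interval -0.28 to 0.19, adjusted p = 0.872, limma).

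Terf2ip (chr8:112011398-112020528, plus strand), whose product depends on TRF2 to reach telomeres, had folds of 52.0 and 43.2 in Control and of 50.5 and 49.0 in TRF2KO. Again the groups overlapped, with a log2 difference of -0.03 (adjusted p = 0.923, limma). Its start lies 75 bp from that of Kars, a lysyl-tRNA synthetase gene read the other way, so this peak belongs to both genes.

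The bridging subunits were likewise not called. Tinf2 (chr14:55674689-55681820, minus strand) had folds of 83.3 and 72.9 in Control and of 86.0 and 89.2 in TRF2KO. TRF2KO values were higher before centring and overlapped with Control after it (log2 difference 0.07, adjusted p = 0.797, limma). Acd (chr8:105695860-105701102, minus strand) had folds of 46.5 and 40.3 in Control and of 47.3 and 45.2 in TRF2KO, which overlapped, with an adjusted p of 0.989 by limma. It shares its peak with Pard6a, a cell polarity gene that starts 46 bp away.

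The POT1 genes held the highest differences of the complex, neither of them called. Pot1a (chr6:25743737-25809246, minus strand) had folds of 62.1 and 52.9 in Control and of 71.8 and 60.1 in TRF2KO. Its log2 difference was 0.10 (adjusted p = 0.675, limma). Pot1b (chr17:55651951-55712628, minus strand) had folds of 47.6 and 44.8 in Control and of 60.4 and 51.1 in TRF2KO. Here the log2 difference was 0.17, with a 95% interval of -0.05 to 0.38 and an adjusted p of 0.495 (limma). After centring, both TRF2KO libraries lay above both Control libraries at these 2 members of 7, an order held by 24.7% of tested genes.

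Across the 6 members other than Terf2 the log2 differences ran from -0.05 to 0.17, against a median absolute difference of 0.10 over all tested genes. The median of all 7 was -0.004 and that of all tested genes 0.01. The intervals given above for Terf1 and Pot1b are not adjusted for the number of genes tested. They therefore do not mark the smallest difference that could be called. The Adamts4 promoter, for example, had a log2 difference of -0.67 and was not called (adjusted p = 0.0573, limma). Its SE, 0.075, was below that of every member. With 2 libraries in a group, a difference of that size at the other 6 members could thus have been missed.

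**Figure D3:**
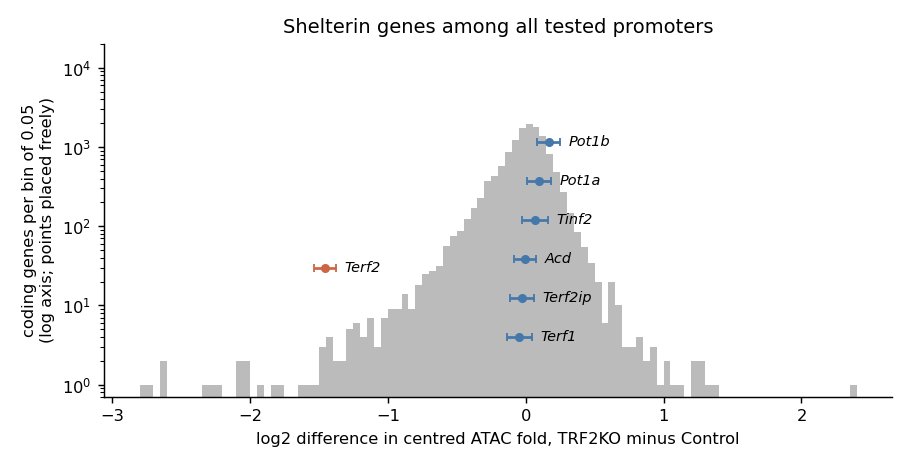
Log2 difference in centred ATAC fold, TRF2KO minus Control (horizontal axis), for 13267 coding genes (gray bars, number of genes on a log axis) and the 7 shelterin genes (points with SE, placed freely in height). Terf2 lies at -1.46 in the sparse lower tail and the other 6 between -0.05 and 0.17, in the bulk.

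In Control, the order of promoter folds was Terf1, Tinf2, Pot1a, Terf2, Terf2ip, Pot1b and Acd, with group means of 91.4, 78.1, 57.5, 51.4, 47.6, 46.2 and 43.4. Across libraries, neighbours in this order from Terf1 to Tinf2 and from Pot1a down overlapped in their raw folds, whereas both libraries of Tinf2 exceeded both of Pot1a. All genes were measured in the same libraries, and within each Control library the order held with 1 exception. In Control replicate 2, Pot1b (44.8) stood above Terf2ip (43.2). In TRF2KO, Terf2 stood last at 20.1, with Acd next above it at 46.3.

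Tested genes whose centred promoter values over the 4 ATAC libraries were nearest to those of Terf2 were Ccnd1, the cyclin D1 gene, the uncharacterized gene 1700001K19Rik, and B3gnt8, a glycosyltransferase gene. Their Euclidean distances on the log2 scale were 0.386, 0.41 and 0.421. Log2 differences were -1.09 (adjusted p = 0.0364) at Ccnd1, -1.60 (adjusted p = 0.0211) at 1700001K19Rik and -1.17 (adjusted p = 0.0573, limma) at B3gnt8. A fall close to that of Terf2 was built into the choice of these genes, so their p-values only describe them. None of the 3 had a TRF2 peak within 1 kb of its start in either library, where 59.7% of tested genes had one in at least 1.

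Away from the starts, the shelterin loci held few ATAC peaks. The gene bodies and 3 kb around each transcript start contained 10 peaks in each Control library and 8 in each TRF2KO library, of which 7 in every library were the promoter peaks. Beyond the Terf2 last exon, this left an intronic peak in Terf1 and an intronic peak in Pot1b, and both were listed in both Control libraries and in neither TRF2KO library. The Terf1 peak, 5894 bp into the gene (chr1:15811388-15811693 in Control replicate 1), had folds of 5.52 and 6.30. The Pot1b peak, 10014 bp into the gene in Control replicate 1, had folds of 7.59 and 4.68. Summit pileups were 23 and 34 fragments in Terf1 and 32 and 25 in Pot1b, and the folds ranked between the 30.9 and 47.6 percentiles of their lists, in the weaker part.

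Of 3 member regions inside a gene and over 1 kb from any coding start that had a peak in both Control libraries, 2 were thus in neither TRF2KO list. Over all coding genes this was 9.46% of 35105 such regions, whereas 2.41% of the regions in both TRF2KO libraries were in neither Control list. These shares cover regions of every strength, while the 2 member regions were weak. The TRF2KO lists were also shorter, with 84776 and 84102 peaks against 89160 and 100521 in Control. The part of strength and list length in these shares was not tested. The GoPeaks lists of the authors gave the same 2 regions in the same libraries, and the SEACR lists held neither region in any library. A peak missing from a list was below the caller's threshold there, which does not show that the DNA was closed, and 2 libraries a group give no test for a presence that is scored yes or no.

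The 178 bases shared by the Pot1b intronic peaks of both Control libraries are printed because they hold letters of a known element. They lie at chr17:55702574-55702751 of GRCm38 and are read on the minus strand, along the gene. Capitals mark CTGCCCCCT, the reverse complement of AGGGGGCAG, which are core letters of the motif bound by CTCF, a protein that organizes chromatin loops. These 9 letters, on either strand, were found in the middle 201 bases of 1.18% of the 35105 regions, and were looked for after the sequence had been read.
Pot1b intron: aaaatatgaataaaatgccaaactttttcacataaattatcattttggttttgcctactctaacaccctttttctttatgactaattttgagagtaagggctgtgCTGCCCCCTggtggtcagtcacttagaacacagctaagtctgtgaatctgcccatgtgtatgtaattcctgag

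**Figure D4:**
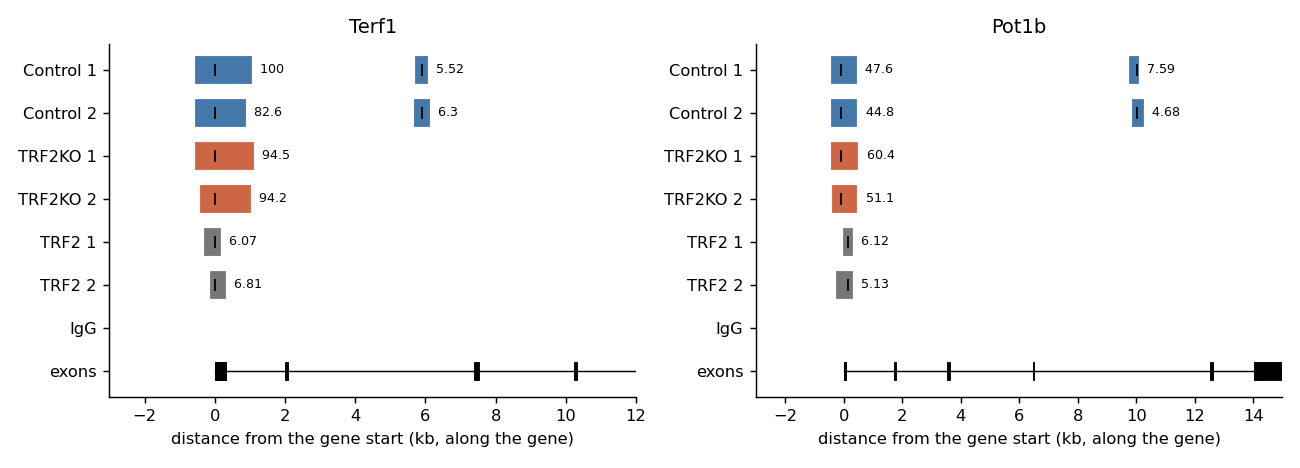
Peaks at Terf1 (left) and Pot1b (right) in all 7 libraries by distance from the gene start (kb, along the gene); bars are peaks, ticks are summits, numbers are MACS folds and black boxes are exons. The intronic peaks, with folds of 5.52 and 6.30 in Terf1 and of 7.59 and 4.68 in Pot1b, appear in the Control libraries and have no counterpart in the TRF2KO libraries.

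TRF2 itself was mapped near every shelterin start, but mostly in 1 library of 2. A TRF2 peak within 1 kb was present in both libraries at 2 of 7 members, Terf1 and Pot1b. Among coding genes with an ATAC peak in all 4 libraries the share was 37.1%, and among all coding genes it was 22.5%. At the other 5 members the peak was in exactly 1 library, against 22.6% of the genes with an ATAC peak in all 4. All 7 thus had a peak in at least 1 library, against 59.7%. None had an IgG peak, against 0.151%.

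**Figure D5:**
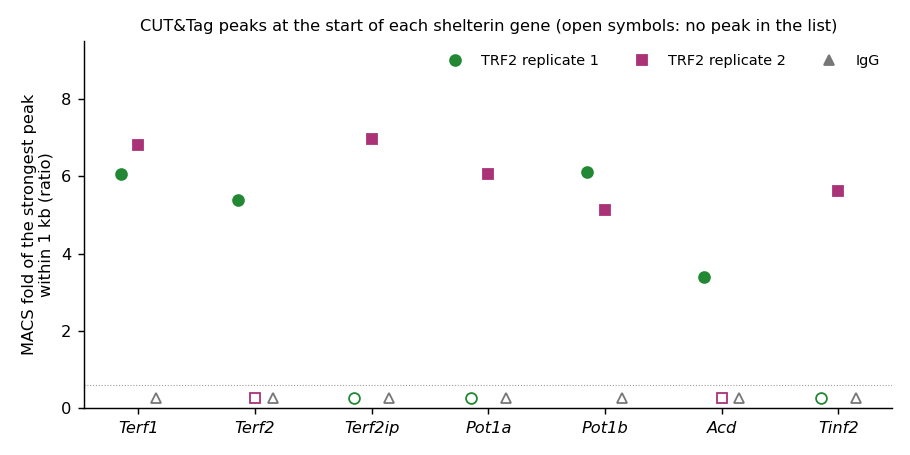
MACS fold (ratio over local background, vertical axis) of the strongest CUT&Tag peak within 1 kb of each shelterin start in 2 TRF2 libraries and 1 IgG library, where open symbols below the dotted line stand for no peak. Terf1 and Pot1b have filled symbols for both TRF2 libraries, the other 5 genes for 1, and no gene for IgG.

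TRF2 peaks at Terf1 had folds of 6.07 and 6.81, with 9 fragments at the summit in each library and summits 13 and 4 bp after the start. At Pot1b the folds were 6.12 and 5.13, from 8 and 6 fragments, with summits 144 and 158 bp after the start, in the first intron. These are small pileups, and the folds ranked between the 36.9 and 72.5 percentiles of their lists.

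In TRF2 replicate 1 alone, Terf2 had a peak of fold 5.40 (7 fragments, summit 88 bp after the start) over its own exon 1, and Acd one of fold 3.39 (7 fragments, summit 645 bp after the start). The Acd peak, at the 0.252 percentile of its list, was among the weakest TRF2 calls. In TRF2 replicate 2 alone, Terf2ip had a peak of fold 6.96 (10 fragments), Pot1a one of 6.06 (7 fragments, summit at -122 bp) and Tinf2 one of 5.63 (10 fragments, summit at -117 bp from the start) with a weaker one of 3.95 inside the gene. All the TRF2 peaks at these starts rested on 6 to 10 fragments, and occupancy at these 5 genes was not seen in both libraries. The Acd peak was also the one counted for Pard6a, and the Terf2ip peak the one counted for Kars. Neither peak therefore belongs to the shelterin gene alone.

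TRF2 peaks were commoner at genes whose chromatin was more open. When genes were split into 5 equal groups by centred Control ATAC fold, the share with a TRF2 peak in both libraries rose from 4.71% in the lowest to 79.7% in the highest. Terf1 lay in the highest group, Tinf2 and Pot1a in the 4th, where the share was 52.1%, and Terf2, Terf2ip, Pot1b and Acd in the 3rd, where it was 32.8%. The corresponding shares with a peak in at least 1 library were 92.4%, 79.2% and 63.7%. CUT&Tag was done after injury and ATAC-seq at 0 hr, so the 2 readouts come from different cells.

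The sequence shared by both TRF2 peaks at Terf1, 256 bases at chr1:15805545-15805800 (GRCm38, plus strand), runs from 101 bases before the start to 154 after it and had a GC content of 64.8%. It contains neither TTAGGG nor the G-quadruplex pattern on either strand. Capitals mark the CCAAT box, a common promoter element, which occurs once on each strand and was looked for after the sequence had been read.
Terf1: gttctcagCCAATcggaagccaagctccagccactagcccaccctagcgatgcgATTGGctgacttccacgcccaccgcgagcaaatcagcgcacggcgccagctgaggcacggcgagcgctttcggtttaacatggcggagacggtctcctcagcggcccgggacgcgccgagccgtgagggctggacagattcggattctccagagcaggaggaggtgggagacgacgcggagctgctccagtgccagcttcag

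At Pot1b, the 300 bases around the ATAC summit of Control replicate 1 (chr17:55712578-55712877, GRCm38, minus strand, read along the gene) lie mostly in the TRF2 peak of replicate 2, and only their end on the gene side reaches the peak of replicate 1. Unlike at Terf1, the printed stretch is thus not the one shared by both TRF2 peaks, which spans 271 bases (chr17:55712356-55712626). Capitals, all outside the replicate 1 peak and before both TRF2 summits, mark a telomeric hexamer, TTAGGG, at -133 to -128 bases from the start, and a tract on the C strand that matches the G-quadruplex pattern and consists mostly of a single run of C.
Pot1b: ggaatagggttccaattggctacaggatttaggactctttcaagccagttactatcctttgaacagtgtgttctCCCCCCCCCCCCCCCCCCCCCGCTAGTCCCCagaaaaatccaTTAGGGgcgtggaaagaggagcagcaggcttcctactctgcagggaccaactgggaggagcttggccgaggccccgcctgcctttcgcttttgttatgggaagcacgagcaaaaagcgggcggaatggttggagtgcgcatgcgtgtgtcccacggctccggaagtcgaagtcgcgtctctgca

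Neither pattern set the shelterin promoters apart. Within 1 kb either side of the start, 4 members held the G-quadruplex pattern (Terf2, Terf2ip, Pot1b and Acd), where 69.3% of the 13267 genes did, and 2 held TTAGGG (Terf1 and Pot1b), where 56.7% did. In the 300 bases at the ATAC summit, the pattern was found at Terf2 and Pot1b (27.7% of genes) and the hexamer at Pot1b (9.6% of genes). Of the 2 members with TRF2 peaks in both libraries, Terf1 thus had the hexamer within 1 kb but not at its summit.

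Some short elements of known promoter factors were counted on either strand in the RefSeq promoters (GRCm38.p6, 250 bases before to 50 after the start), which covered 16522 coding genes and the members other than Terf1. TGACGTCA, the cAMP response element, was present at Pot1a and Tinf2, against 2.43% of promoters. CCGGAAG, an ETS element, was present at Terf2ip, Pot1b and Tinf2, against 12.3%. GCATGCGC, an NRF1 element, was present at Pot1b, against 3.76%, and CCAAT at Terf2, Pot1b and Acd, against 38.7%, beside its matches in the Terf1 sequence above. These letters were chosen after the sequences had been read, and a match is a description and no sign of binding.

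The promoters of Pot1a (chr6:25809169-25809468) and Tinf2 (chr14:55681768-55682067), both on the minus strand and read along the gene, overlap the TRF2 peaks of replicate 2 and are shown for the element they share, which lies inside that peak in Tinf2 and outside it in Pot1a. Capitals mark TGACGTCA in both and, in Tinf2, the reverse complement of CCGGAAG. Counted from the start, the element lies at 21 to 28 bases in Pot1a and at -53 to -46 bases in Tinf2.
Pot1a: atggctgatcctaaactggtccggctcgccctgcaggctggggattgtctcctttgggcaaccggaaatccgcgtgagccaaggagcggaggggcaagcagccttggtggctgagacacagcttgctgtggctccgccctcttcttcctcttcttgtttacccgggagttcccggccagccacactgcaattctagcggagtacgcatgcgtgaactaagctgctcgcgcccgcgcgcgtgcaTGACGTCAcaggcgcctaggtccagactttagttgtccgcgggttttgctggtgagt
Tinf2: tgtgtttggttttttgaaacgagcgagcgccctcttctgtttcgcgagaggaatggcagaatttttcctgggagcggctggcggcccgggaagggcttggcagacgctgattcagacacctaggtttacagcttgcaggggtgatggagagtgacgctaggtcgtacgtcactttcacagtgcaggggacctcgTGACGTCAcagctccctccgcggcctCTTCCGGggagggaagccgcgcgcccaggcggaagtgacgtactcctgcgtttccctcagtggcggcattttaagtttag

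The wider telomere machinery, a list of 28 genes for telomerase, the CST complex that finishes telomere ends, nucleases and DNA damage kinases, showed no call. Of these, 26 had an ATAC peak in all 4 libraries, and none passed the limma test, with 1 at an unadjusted p under 0.05. Their log2 differences ran from -0.22 to 0.25 with a median of 0.01, 9 below 0 and 17 above. Tert, which encodes the catalytic subunit of telomerase, had a peak in 2 of 4 ATAC libraries, 1 of each genotype, with folds of 5.04 in Control replicate 2 and 2.72 in TRF2KO replicate 2. Xrcc6 had none within 1 kb of its annotated start.

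TRF2 peaks in both libraries were found at 13 of the 28 and in 1 library at 5. All of these genes were among the 26 with an ATAC peak in every ATAC library. Among coding genes with an ATAC peak in all 4 libraries, the shares were 37.1% and 22.6%, and the share with both rose with open chromatin as given above. By mean TRF2 fold the first 4 were Hmbox1, whose product binds telomeric repeats, at 8.52 and 12.3, Dkc1, the dyskerin gene of telomerase RNA maturation, at 9.47 and 10.8, Atm, a DNA damage kinase, at 9.48 and 8.02, and Slx4, a nuclease scaffold, at 8.95 and 7.23. Mean TRF2 folds of the 13 ran from 3.99 at Zbtb48 to 10.4 at Hmbox1. By centred Control ATAC fold among tested genes, Hmbox1 stood at the 99.05 percentile, Dkc1 at 68.0, Atm at 97.0 and Slx4 at 69.2.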

How the data were processed

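According to the methods, adapters were trimmed with Cutadapt, Bowtie2 placed the reads on mm10 in its local mode, and Picard and SAMtools removed duplicate and poorly paired reads. The submitters' processing notes name cutadapt 4.4, Bowtie2 2.4.4 and 2.5.4, Picard 3.1.1, SAMtools 1.10, MACS3 3.0.0 and 3.0.2, SEACR 1.3 and DiffBind 3.10.1. SEACR was run in its stringent mode. Other peak-caller settings, a Tn5 shift and the use of IgG as control are not given in the sources used here, so the peak edges, and which weak peaks are listed, depend on unknown thresholds. The authors deposited MACS peaks per library with a fold (a ratio), −log10 p, −log10 q and a score, which was not used. The SEACR signal and the DiffBind score that the authors deposited were not used either, and their region positions were, as were those of GoPeaks.

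For each coding gene of GENCODE M21 on chromosomes 1 to 19, X and Y, the strongest MACS peak overlapping (by at least 1 bp) 1 kb either side of the start gave its value. Log2 folds were centred on each library's median and tested with limma 3.58.1 (R 4.3.3) across the 13267 genes with a peak in all 4 ATAC libraries, with Benjamini-Hochberg adjustment at 0.05. The limma step was tested on simulated data with independent noise in each library. That test therefore does not bear on any structure shared between libraries. Summit pileups were solved from fold and p by trying whole numbers of fragments. A number matching p was found for all 400 peaks sampled per library, which were limited to a -log10 p under 200. Many member promoter peaks were stronger than that limit, and their pileups met the same matching rule. The ATAC background pileups were 3.35 to 4.56. Depth is known only through these pileups, since no read totals were used here. Libraries were grouped by title. The members, the gene lists, the markers and the tests were chosen with earlier results of these data known. The named genes were all members, their nearest coding neighbours, the telomere genes called or with the 4 highest mean TRF2 folds among those with peaks in both libraries, and the 3 genes most like Terf2. Motifs other than TTAGGG and the G-quadruplex pattern, and the other callers' view of the intronic regions, were added after the data had been seen. Alternatives covered the window, scaling, filters, callers and each library left out.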

Additional observations from a re-analysis of the deposited data

How the results depend on the processing

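Over the 13 alternatives, the log2 difference at Terf2 lay between -1.36 (without centring) and -1.52 (summed width times fold). The Terf2 promoter kept its call under 8 of 13. The adjusted p was 0.0506 without the filter on missing peaks (log2 difference -1.45, no member called) and 0.162 for summed width times fold (-1.52, no member called). Leaving out 1 library in turn gave log2 differences of -1.42 to -1.49 and 0 to 1 members called. The number of coding genes called, 28, became 107 in a window of 3 kb either side, 46 for peaks over the start itself, 179 without centring (64.8% of them lower, against 82.1%), 5 under quantile normalization, 54 at a -log10 q of at least 5, 5 without the filter, 0 for summed width times fold, and 7 to 138 with 1 library left out.

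With the replicate number as a block, the log2 difference at Terf2 was -1.46 with an adjusted p of 0.0578, 0 members and 4 coding genes were called. The Terf2 call was thus lost under the block. Deviations of same-numbered libraries correlated at -0.08, but these were taken after centring, which removes any shift shared by whole libraries. Nothing in the labels says that the numbers pair libraries, so the main fit holds no block.

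No other member was called under any of the 13 alternatives, and 66 of 78 values kept their sign. The others lie near 0. Without centring, the values were 0.053 at Terf1, 0.071 at Terf2ip and 0.095 at Acd. Without the filter, Acd came to 0.0013, and for summed width times fold Tinf2 came to -0.026. With 1 library left out in turn, Terf1 ranged from -0.110 to 0.019, Terf2ip from -0.082 to 0.026, Acd from -0.036 to 0.029 and Tinf2 from -0.023 to 0.163. The causes were not tested.

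The rank difference at Terf2, -16.6 percentile points, ranged from -15.8 to -17.5 with 1 library left out. Members with a TRF2 peak in both libraries, 2, became 1 for peaks over the start itself, 1 at a -log10 q of at least 5, and 4 to 5 with 1 TRF2 library left out, or 7 in either library. Members with the G-quadruplex pattern, 4, became 2 in 300 bases at the ATAC summit, and intronic regions in Control alone, 2, became 0 with SEACR. The TRF2 peaks rest on few fragments, and depth limits their absence.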
